A study of Mus musculus with 12 samples.

Results

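Chemokine receptor genes that T cells are known to use were followed through bulk RNA sequencing of splenic T cells from angiotensin II (Ang II)-infused mice. The 9 genes were Ccr1, Ccr2, Ccr4, Ccr6, Ccr9, Cxcr3, Cxcr4, Cxcr5 and Cxcr6, chosen by name from the 49315 genes of the count table, and all 9 passed the filter on low counts in every comparison. The series held 12 libraries in 4 groups of 3: WT sham, WT Ang II, miR-214-/- sham and miR-214-/- Ang II. The miR-214-/- mice lacked the microRNA gene Mir214, and the WT mice were labelled wild-type. The study called the deletion global, and described no Cre driver or restriction to T cells. All mice were 12-week-old males that carried osmotic minipumps for 14 days, delivering either vehicle (sham) or Ang II at 490 ng/kg per day, a dose that raises blood pressure. T cells were isolated from the spleen, so the libraries were cell populations with whatever non-T cells the isolation left. For splenic T cells in other assays, the study described negative selection. The labels number 3 replicates per group. The study described its replicates as independent mice and did not mention pooling for the sequencing. The p-values below set group differences against the spread between the 3 libraries of a group.

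Chemokine receptors are G protein-coupled receptors that read gradients of small secreted proteins, the chemokines, and steer leukocytes through Gi, phosphoinositide 3-kinase and small GTPases to the integrin and actin machinery. T cells change their set of receptors as they differentiate: naive cells keep the receptors of lymphoid tissue, and effector and memory cells gain those for inflamed tissue, gut, skin or follicle. In hypertension, T cells collect in the fat around blood vessels, and the chemokine receptors are the molecules by which they would be recruited there. Several of the 9 receptors are not particular to T cells. Ccr1 and Ccr2 are abundant in neutrophils or monocytes, and Ccr6 and Cxcr5 are strongly expressed by B cells.

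The libraries held between 21126874 and 29605988 counts. Pan-T markers (Cd3d, Cd3e, Cd4, Cd8a and 10 others) were abundant in all 12 libraries, with a summed level of 4483 to 7506 CPM (counts scaled to library size). The defining markers of other cells were present as well. In WT, 11 of 14 T cell markers fell with Ang II, by 0.41 to 0.59 on the log2 scale. For neutrophils, 12 of 12 markers rose, with a median log2 fold change of 3.18. These calls (edgeR, adjusted p under 0.05) stand beside 18.8% of the 16012 genes tested in WT. The summed neutrophil markers were 207 to 263 CPM in WT sham, 1177 to 3476 in WT Ang II, 251 to 1004 in miR-214-/- sham and 651 to 3120 in miR-214-/- Ang II. In bulk RNA, fewer cells of a type and less RNA per cell cannot be told apart. Mir214 itself had 0 counts in all 12 libraries and its host transcript Dnm3os had 1, so the poly(A) libraries could not check the deletion.

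The microRNA that separates the genotypes is shown here as its 3p strand, the only mature strand searched. A direct effect of losing this strand would be read through its seed, bases 2 to 8, in capitals. Mature miR-214-3p has 22 bases and lies at chr1:162223438-162223459 on the plus strand (GRCm38, from RefSeq).

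miR-214-3p: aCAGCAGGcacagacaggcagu

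The 7-base match to this seed, CCTGCTG, was searched on the sense strand of the longest annotated 3′ UTR of each gene (GENCODE M21). It was found in 4052 of 21016 such 3′ UTRs (19.3%), and in 1 of the 9 receptors, Ccr4. The other 8 receptors, with 3′ UTRs of 73 (Ccr6) to 3966 bases (Ccr9), held no such match. The Ccr4 match began 170 bases after the stop codon and is shown with its flanks, match in capitals, at chr9:114491726-114491754 on the minus strand.

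Ccr4: aggttcagagcCCTGCTGggtggaggaaa

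A match of these letters is a description of the sequence and not a measured site. Ccr4, the receptor for Ccl17 and Ccl22 on Th2 and regulatory T cells, had a mean of 14.7 ± 1.8 CPM (SD, n = 3) in WT sham and 10.8 ± 2.1 in miR-214-/- sham. With Ang II the means were 14.6 ± 1.31 and 15.4 ± 2.49 CPM.

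Of the 9 genes, 6 lie on chromosome 9, and 4 of them (Ccr9, Cxcr6, Ccr1 and Ccr2, in this order) lie within chr9:123678439-124113557. Ccr1 and Ccr2 were the members with the widest spread between libraries, a ratio of the highest to the lowest CPM of 14.7 and 4.53. Across the 12 libraries, their log2 CPM had a Pearson r of 0.83 (n = 12, a description over 4 groups that share depth and marker shifts). Ccr9 overlaps Lztfl1 and Slc6a20a on the opposite strand, Cxcr5 overlaps Bcl9l and Cxcr6 overlaps Fyco1. The strand setting of the counting was not stated, so reads of these overlapping genes may be mixed in.

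Per kilobase of merged exons, Cxcr4 was the most abundant receptor in all 4 groups. Cxcr4 is the receptor for Cxcl12 that holds lymphocytes in bone marrow and lymphoid tissue. Its level was 106 ± 16.3 CPM per kilobase (SD, n = 3) in WT sham and 75.5 ± 20.5 in miR-214-/- Ang II. In WT sham the order below it was Cxcr3 (34.1 ± 7.9), Cxcr6 (23.1 ± 1.94), Cxcr5 (15.1 ± 1.15) and Ccr2 (11.8 ± 1.01), with no overlap between neighbours. Ccr4 (4.74 ± 0.583), Ccr9 (4.58 ± 1.27) and Ccr6 (3.01 ± 1.11) followed and overlapped with each other in this order, and Ccr1 (1.38 ± 0.606) was last, below every library of Ccr6. The place of Ccr9 depends on the length used: with its longest transcript in place of merged exons, its WT sham level was 9.04, which puts it above Ccr4. In WT Ang II the order changed in its middle and lower part. Ccr2 stood at rank 3 with 30.7 ± 15.1 CPM per kilobase and overlapped with Cxcr3 and Cxcr6. Ccr1 moved from rank 9 to rank 6, with 7.39 ± 3.19, and Ccr9, by merged exon length, took the last place, with 2.93 ± 0.822. By the same length, the miR-214-/- mice had Ccr6 last in sham (1.82 ± 0.199) and Ccr9 last with Ang II (2.7 ± 0.688).

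**Figure D1:**
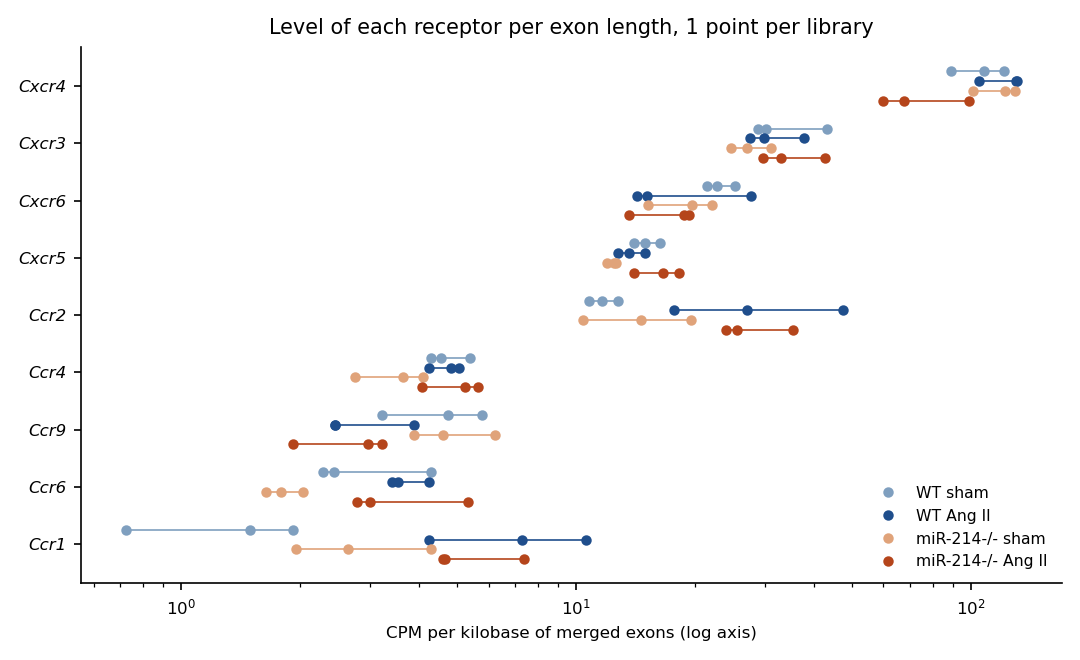
Level of each receptor in CPM per kilobase of merged exons (log axis), 1 point per library and a line from the lowest to the highest of the 3 libraries of each group. Cxcr4 is highest in every group, and in WT all Ang II points of Ccr1 and Ccr2 lie to the right of the sham points.

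The first question of the design was what Ang II did in WT T cells. Of the 9 receptors, 2 rose, Ccr1 and Ccr2, and none fell (edgeR quasi-likelihood test, adjusted p under 0.05). This is 22.2% of the receptors, beside 18.8% of the 16012 genes tested, so the share of receptors called was near that of all genes. The median log2 fold change was 0.01 for the 9 receptors and -0.02 for all genes.

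Ccr1 (ENSMUSG00000025804, chr9:123962124-123968692, minus strand, GRCm38), a receptor for Ccl3, Ccl5 and other inflammatory chemokines on neutrophils, monocytes and memory T cells, was measured at 4.23, 5.43 and 2.05 CPM in the 3 WT sham libraries. It reached 30.1, 12 and 20.7 CPM in the 3 WT Ang II libraries. The lowest Ang II library was above the highest sham library. The log2 fold change was 2.44 ± 0.45 (SE, adjusted p = 0.0144, edgeR), or 5.44-fold, on 45 to 137 reads per library in sham. The gene passed in 13 of 14 alternative fits, and did not pass without WT sham replicate 1 (adjusted p = 0.0595, edgeR).

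The proximal promoter of Ccr1 is shown because Ccr1 had the largest change of the 9. The 250 bases before its start, at chr9:123968693-123968942 on the minus strand (GRCm38, from RefSeq), are given 5′ to 3′, with a PU.1-type core (GAGGAA) and a RUNX-type core (TGTGGT, here as its reverse complement ACCACA) in capitals.

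Ccr1 promoter: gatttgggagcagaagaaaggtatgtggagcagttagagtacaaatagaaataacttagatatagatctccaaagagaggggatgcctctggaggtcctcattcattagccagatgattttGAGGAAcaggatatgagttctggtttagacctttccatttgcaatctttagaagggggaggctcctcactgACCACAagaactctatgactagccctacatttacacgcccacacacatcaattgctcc

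PU.1 (Spi1) is a factor of myeloid and B cells, and RUNX factors act in T cells and in myeloid cells. The cores begin 129 and 58 bases before the start. Searched on both strands of all 32851 listed promoters of 300 bases, GAGGAA was found in 28.3% and TGTGGT in 16.8%. Of the 8 receptors with a listed promoter, GAGGAA was found for 3 (Ccr1, Ccr6 and Cxcr3), and TGTGGT for 4 (Ccr1, Ccr6, Cxcr3 and Cxcr6). A TATA box, TATAAA, was found for 1 receptor, Cxcr4, and in 13.6% of all promoters. The promoter of Ccr2, which rose with Ccr1, held none of the 3 motifs. These are letters in a window, and no binding was measured.

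Ccr2 (ENSMUSG00000049103, chr9:124101950-124113557, plus strand), the receptor for Ccl2 that brings monocytes and effector T cells into inflamed tissue, was at 86.7, 73.2 and 78.5 CPM in WT sham. With Ang II it was at 320, 120 and 183 CPM, again with no overlap. The log2 fold change was 1.41 ± 0.33 (SE, adjusted p = 0.0291, edgeR), or 2.66-fold. WT Ang II replicate 1 held the highest value of the series for both Ccr1 and Ccr2. Without it, Ccr2 still passed, and the call was lost without any 1 of the 3 WT sham libraries or without WT Ang II replicate 3 (adjusted p 0.0708 to 0.0918, edgeR).

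**Figure D2:**
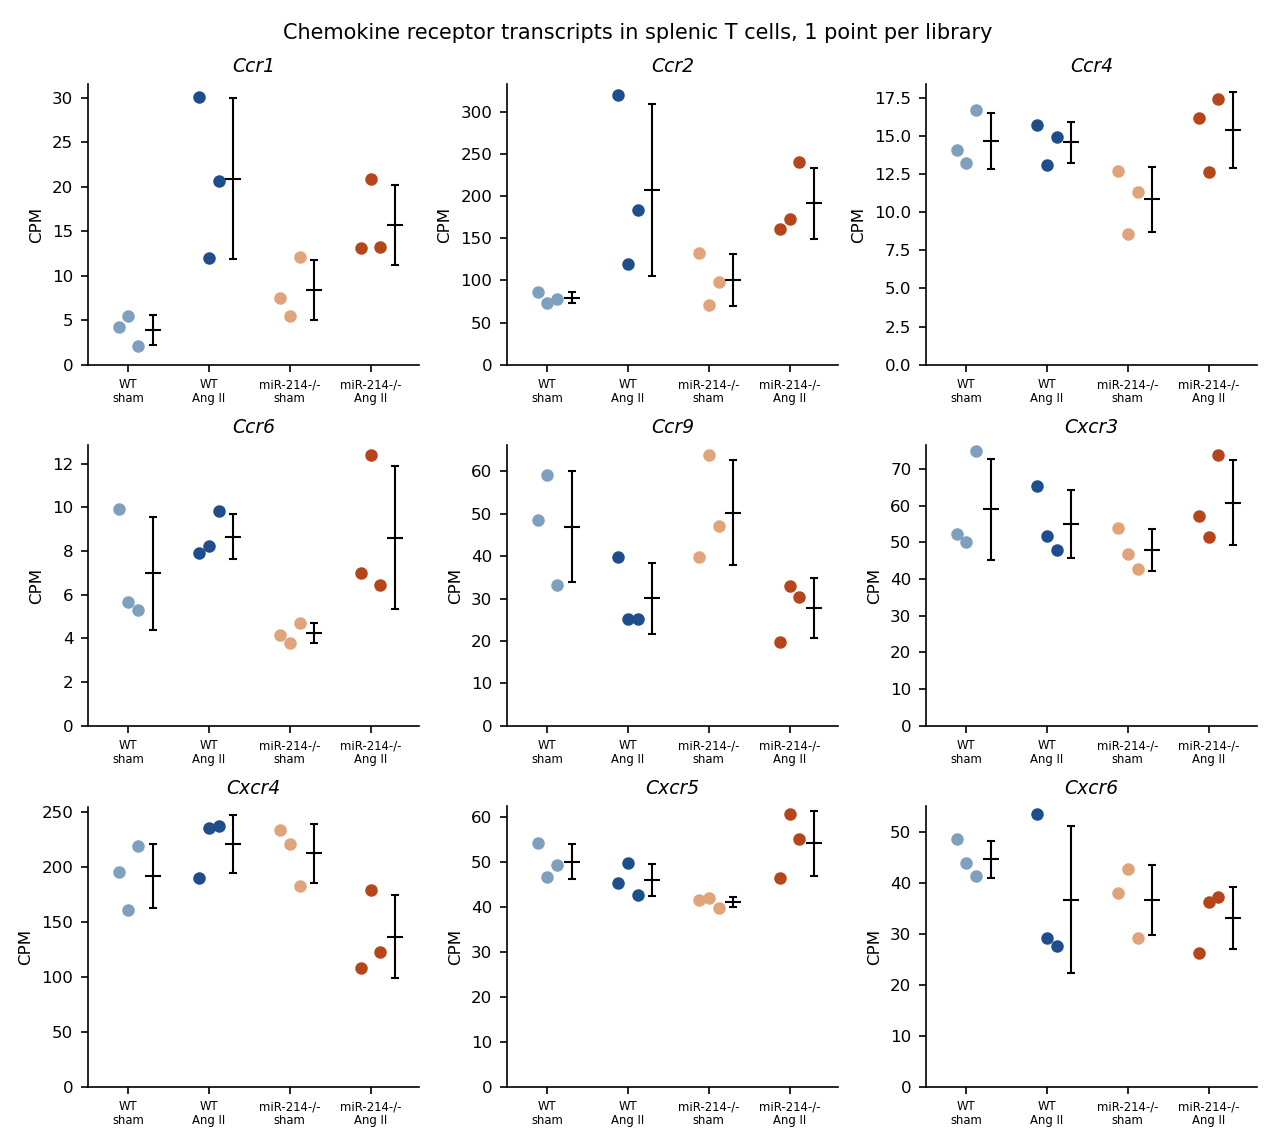
CPM of the 9 receptors in every library (points, 3 per group), with the group mean and SD as bars beside them; each panel starts at 0. Ccr1 and Ccr2 separate sham from Ang II in both genotypes, and the 4 groups overlap for Cxcr3.

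In the same libraries, markers of myeloid cells were also read. Among 12 macrophage and monocyte markers, all had a positive log2 fold change in WT (median 0.82). Of the 12, 1 passed, Lyz2 (2.05, adjusted p = 0.0206, edgeR), beside 18.8% of all genes tested. The summed level of the 12 markers was 358 to 651 CPM in WT sham and 565 to 2470 in WT Ang II. The highest sum was in WT Ang II replicate 1, the library with the most Ccr1 and Ccr2. Csf1r, the defining receptor of monocytes and macrophages, was at 53.1 to 132 CPM in WT sham and 61.8 to 346 in WT Ang II. None of the defining markers was at 0: in WT sham S100a8 was at 27.6 to 32.3 CPM and Adgre1 at 13.2 to 35. Among the macrophage and monocyte markers, Lyz2 was at 178 to 184 CPM in WT sham and 376 to 1286 in WT Ang II. Itgam was at 6.32 to 10.7 CPM in WT sham and 12.2 to 34.9 in WT Ang II. Every WT Ang II library was thus above WT sham for these markers, and the others of the list overlapped. WT Ang II replicate 2 had a macrophage and monocyte sum of 565 CPM, within the range of WT sham. In the same library Ccr1 was at 12 CPM and Ccr2 at 120 CPM, both above every WT sham library. Its neutrophil sum was 1177 CPM, above every WT sham library. Of the other lists in WT, 6 of 7 basophil and mast cell markers, 5 of 9 red-cell precursor markers and 2 of 5 megakaryocyte markers rose with Ang II. So did 1 of 6 plasma cell markers and 1 of 7 dendritic cell markers. None of 10 B cell markers passed, and 1 of 4 NK cell markers tested fell. All these counts stand beside the 18.8% of all genes called. The part of non-T cells in the rise of Ccr1 and Ccr2 was not tested.

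**Figure D3:**
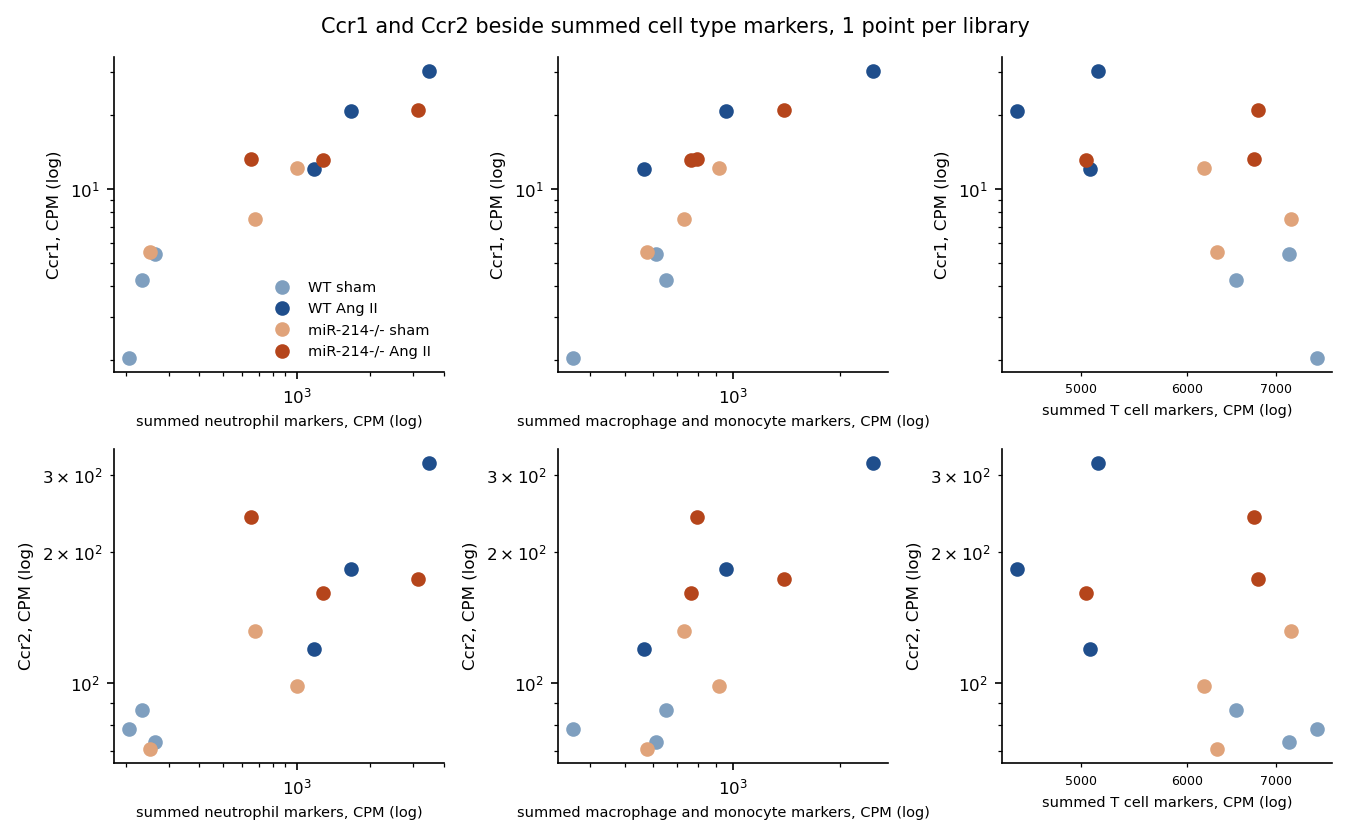
Ccr1 (upper panels) and Ccr2 (lower panels) in CPM against the summed CPM of neutrophil, macrophage and monocyte, and T cell markers, 1 point per library on log axes. The library with the most Ccr1 and Ccr2 (WT Ang II replicate 1) also has the highest neutrophil (3476 CPM) and macrophage (2470 CPM) sums. The library next in Ccr2 (miR-214-/- Ang II replicate 3, 240 CPM) has the lowest neutrophil sum of its group (651 CPM) and a macrophage sum of 797 CPM.

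By the fixed measure of likeness (Pearson r of log2 CPM over the 12 libraries, among 11115 protein-coding genes), the genes most like Ccr1 were Mcemp1, a mast cell and myeloid membrane protein gene, and Rgs18, a regulator of G protein signalling in platelets and myeloid cells (both r = 0.98). Those most like Ccr2 were Msr1, a macrophage scavenger receptor (0.98), and C1galt1c1 (0.97). For the other receptors the closest genes had r between 0.80 and 0.93, and included Cd7 for Cxcr6 (0.90) and Crmp1 for Ccr4 (0.93). All these values share the groups, depth and marker shifts of the same 12 libraries.

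The 4 receptors of helper subsets did not pass in WT. Cxcr3 (ENSMUSG00000050232, chrX:101731535-101734269, minus strand), the Th1 receptor for Cxcl9 and Cxcl10, was at 52.3, 50 and 74.8 CPM in sham and 65.4, 51.8 and 47.8 with Ang II (log2 fold change -0.08 ± 0.18, adjusted p = 0.788, edgeR). Ccr4 (ENSMUSG00000047898, chr9:114490316-114504916, minus strand) differed by 0.01 ± 0.14, with 14.1, 13.2 and 16.7 CPM in sham and 15.7, 13.1 and 14.9 with Ang II. Ccr6 (ENSMUSG00000040899, chr17:8236043-8257141, plus strand), the Th17 receptor for Ccl20, was at 9.94, 5.67 and 5.32 CPM in sham and 7.9, 8.23 and 9.82 with Ang II, a difference of 0.33 ± 0.27. Cxcr5 (ENSMUSG00000047880, chr9:44511787-44561877, minus strand), which takes follicular helper T cells to Cxcl13, was at 54.3, 46.7 and 49.5 CPM in sham and 45.4, 49.8 and 42.8 with Ang II and differed by -0.10 ± 0.09. The sham and Ang II libraries overlapped for all 4, and Ccr6 had the widest SE of them, at the lowest CPM.

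Among the homing receptors, Ccr9 had a lower mean. Ccr9 (ENSMUSG00000029530, chr9:123678439-123784330, plus strand), the receptor for Ccl25 that directs T cells to the small intestine and thymocytes within the thymus, was at 48.6, 59.1 and 33.2 CPM in WT sham and 39.8, 25.2 and 25.2 with Ang II. The ranges overlapped, and the log2 fold change of -0.62 ± 0.26 did not pass (adjusted p = 0.138, edgeR). It passed with DESeq2 (adjusted p = 0.0428), which called 22.9% of genes, and in edgeR without WT Ang II replicate 1 (-0.88, adjusted p = 0.0359). The WT fits that left out 1 library called 946 to 3590 genes. Cxcr6 (ENSMUSG00000048521, chr9:123806475-123811760, plus strand), the receptor for Cxcl16 on effector, natural killer T and tissue-resident cells, was at 48.7, 43.9 and 41.4 CPM in sham and 53.5, 29.2 and 27.6 with Ang II. WT Ang II replicate 1 stood apart from the other two here, and without it Cxcr6 fell by 0.64 on the log2 scale (adjusted p = 0.00815, edgeR), where with it the value was -0.26 ± 0.25 (adjusted p = 0.506). Cxcr4 (ENSMUSG00000045382, chr1:128588199-128592293, minus strand) was at 195, 161 and 219 CPM in sham and 190, 235 and 237 with Ang II (0.23 ± 0.13, adjusted p = 0.267, edgeR).

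Counted by libraries alone, 2 receptors (Ccr1 and Ccr2) had every WT Ang II library above every WT sham library, beside 19.1% of all genes tested. No receptor had every library below, beside 22.0% of all genes.

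The second question was what Ang II did in miR-214-/- T cells. None of the 9 receptors passed the edgeR test, as none of the 15937 genes tested did (0%), with the lowest adjusted p of the receptors at 0.276. At an unadjusted p under 0.05 there were 7 receptors, and 1939 of all genes (12.2%). DESeq2 called 277 genes (2.14% of 12965 tested), among them 3 receptors: Ccr2 (0.94, adjusted p = 0.00523), Ccr6 (1.03, adjusted p = 0.0279) and Ccr9 (-0.85, adjusted p = 0.017). The median log2 fold change was 0.40 for the receptors and 0.03 for all genes.

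By libraries, 4 receptors (Ccr1, Ccr2, Ccr6 and Cxcr5) had all 3 Ang II libraries above all 3 sham libraries, 44.4% of the receptors beside 8.86% of all genes. Ccr9 and Cxcr4 had all 3 below, 22.2% beside 10.5% of all genes.

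Ccr1 was at 7.51, 5.52 and 12.1 CPM in miR-214-/- sham and 13.1, 20.9 and 13.2 with Ang II (0.91 ± 0.33, adjusted p = 0.362, edgeR). Its sham values already lay above those of WT sham. Ccr2 was at 132, 70.6 and 98.4 CPM in sham and 161, 173 and 240 with Ang II (0.94 ± 0.24, adjusted p = 0.279, edgeR). The macrophage and monocyte sum was 576 to 913 CPM in sham and 764 to 1396 with Ang II, and none of these markers passed (median -0.08). The neutrophil markers were higher with Ang II in the same comparison, 12 of 12 with a positive log2 fold change and a median of 1.37, and none passed. Their part in the values of Ccr1 and Ccr2 was not tested.

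Ccr6 was at 4.15, 3.81 and 4.72 CPM in miR-214-/- sham and 6.98, 12.4 and 6.46 with Ang II (1.03 ± 0.28, adjusted p = 0.287, edgeR). Cxcr5 was at 41.6, 42 and 39.8 CPM in sham and 46.6, 60.8 and 55.2 with Ang II (0.40 ± 0.10, adjusted p = 0.276, edgeR). Both receptors were highest in miR-214-/- Ang II replicate 2. That library also had the highest summed B cell markers of the series, 523 CPM, where the other 2 libraries of its group had 103 and 69.1. WT sham replicate 1, second in B cell markers with 409 CPM, likewise had the highest Ccr6 (9.94 CPM) and Cxcr5 (54.3 CPM) of its group. In WT Ang II and miR-214-/- sham, Cxcr5 was also highest in the library with the most B cell markers, and Ccr6 was not. In WT Ang II, Ccr6 was highest in replicate 3 (9.82 CPM), with the lowest B cell sum (138 CPM). In miR-214-/- sham, Ccr6 was lowest in replicate 2 (3.81 CPM), with the highest B cell sum (120 CPM). Without miR-214-/- Ang II replicate 2 the log2 fold changes were 0.67 for Ccr6 and 0.31 for Cxcr5, and both receptors kept the same sign. The part of B cells was not tested.

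Cxcr4 was at 233, 221 and 182 CPM in miR-214-/- sham and 108, 179 and 122 with Ang II. All 3 Ang II libraries were below all 3 sham libraries, and the log2 fold change was -0.63 ± 0.19 (adjusted p = 0.314, edgeR). Ccr9 was at 39.8, 63.9 and 47.1 CPM in sham and 19.7, 33 and 30.4 with Ang II (-0.85 ± 0.23, adjusted p = 0.289, edgeR). The other receptors overlapped between sham and Ang II. Ccr4 was at 12.7, 8.54 and 11.3 CPM in sham and 16.2, 12.6 and 17.4 with Ang II (0.51 ± 0.20), and Cxcr3 at 54, 46.8 and 42.7 against 57.3, 51.4 and 73.8 (0.35 ± 0.15). Cxcr6 was at 38.1, 42.7 and 29.3 CPM in sham and 26.2, 36.3 and 37.2 with Ang II (-0.14 ± 0.18).

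**Figure D4:**
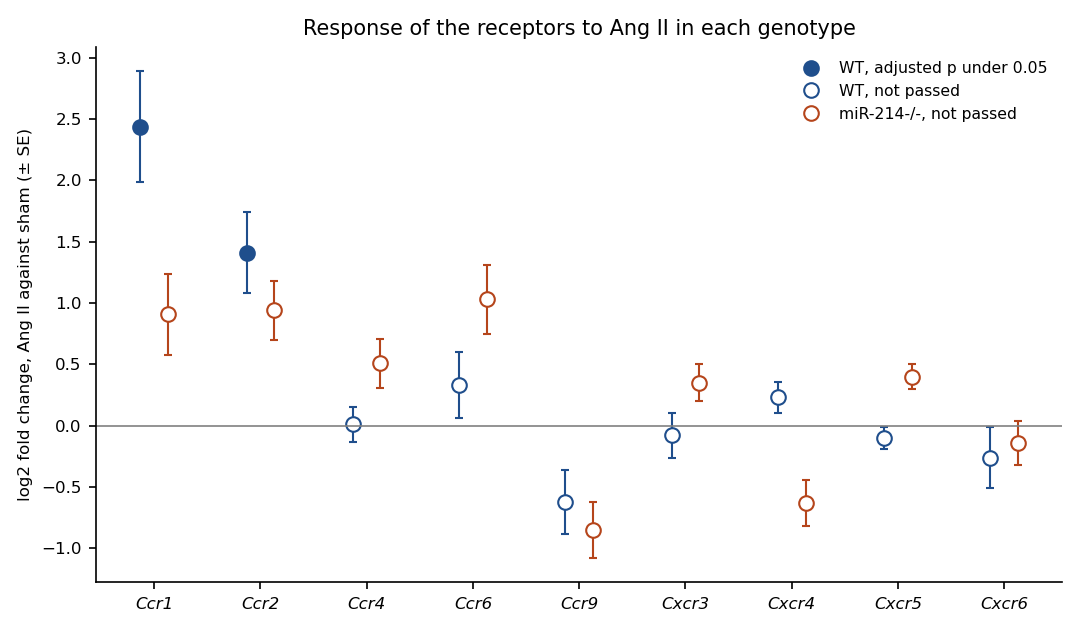
Log2 fold change of Ang II against sham (± SE) for each receptor in WT (blue) and miR-214-/- (red), 3 libraries against 3; filled points passed an adjusted p of 0.05 in edgeR. Ccr1 and Ccr2 in WT are the filled points, and Cxcr3, Cxcr4 and Cxcr5 have opposite signs in the 2 genotypes.

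The test of the difference between the genotypes is the interaction, positive where the response to Ang II was larger in miR-214-/-. None of the 9 receptors passed, beside 1 of 16770 genes (0.00596%), with adjusted p from 0.213 to 0.868 (edgeR). At an unadjusted p under 0.05 there were 3 receptors (Ccr1, Cxcr4 and Cxcr5), and 14.8% of all genes. A response that passed in WT and not in miR-214-/- was therefore not shown to differ for Ccr1 (-1.52 ± 0.59, adjusted p = 0.283) or Ccr2 (-0.45 ± 0.45, adjusted p = 0.642, edgeR). The lowest were those of Cxcr5 (0.52 ± 0.14, adjusted p = 0.213, edgeR) and Cxcr4 (-0.84 ± 0.26, adjusted p = 0.228). DESeq2 called 444 genes (3.22% of 13790), with Cxcr4 among them (-0.87, adjusted p = 0.0427). Leaving out replicate 1 of miR-214-/- Ang II gave 919 called genes of 17172 tested, and Cxcr5 was one of them (0.62, adjusted p = 0.0233, edgeR).

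Over both genotypes, in an additive fit that was added after the data had been seen, 3 receptors passed, beside 15.9% of the 16770 genes tested. Ccr1 rose by 1.65 ± 0.38 on the log2 scale (adjusted p = 0.0168, edgeR) and Ccr2 by 1.16 ± 0.23 (adjusted p = 0.0112, edgeR). Ccr9 fell, with a log2 fold change of -0.75 ± 0.19 (adjusted p = 0.0239, edgeR). Ccr6 did not pass (0.66 ± 0.22, adjusted p = 0.063) and passed with DESeq2 (adjusted p = 0.0134), which called 23.7% of genes. Of the 12 fits that left out 1 library, Ccr6 passed in 1, without WT sham replicate 1 (0.86, adjusted p = 0.0265, edgeR). That fit called 1490 of 17195 genes. WT sham replicate 1 was the WT sham library with the most B cell markers. The log2 fold change of Ccr6 in the 12 fits ran from 0.47 to 0.86. The calls of Ccr1 and Ccr2 held without any 1 of the 12 libraries. That of Ccr9 was lost without WT sham replicate 1, WT sham replicate 2 or WT Ang II replicate 3 (adjusted p 0.0518 to 0.0709, edgeR).

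Because T cell markers fell in WT, each receptor was also divided by the summed CPM of the 14 T cell markers, a measure chosen after the data had been seen and given without a test. On this scale 61.1% of all genes had every WT Ang II library above every WT sham library, and 0.862% had every library below. Among the receptors there were 7 above (Ccr1, Ccr2, Ccr4, Ccr6, Cxcr3, Cxcr4 and Cxcr5), or 77.8%, and none below. Most genes were thus higher on this scale in WT, where the sum they were divided by was lower in every Ang II library. In miR-214-/- the shift was smaller: 12.3% of all genes were above and 2.95% below. There, 5 receptors were above (Ccr2, Ccr4, Ccr6, Cxcr3 and Cxcr5) and 2 below (Ccr9 and Cxcr4).

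Per 1000 CPM of T cell markers, Cxcr4 was at 29.9, 22.5 and 29.2 in WT sham and 36.9, 46.2 and 53 in WT Ang II. It was at 32.4, 34.9 and 29.5 in miR-214-/- sham and 21.5, 26.3 and 18.2 in miR-214-/- Ang II. The 2 genotypes moved in opposite directions with no overlap in either. Ccr9 gave 6.71 ± 2.02 (SD, n = 3) in WT sham and 6.1 ± 1.45 in WT Ang II, a ratio of means of 0.909 with overlapping libraries. In CPM, its log2 fold change of -0.62 in WT stood beside a median of -0.50 for the T cell markers. In miR-214-/- it gave 7.76 ± 2.29 and 4.43 ± 0.484, a ratio of 0.572 with no overlap.

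**Figure D5:**
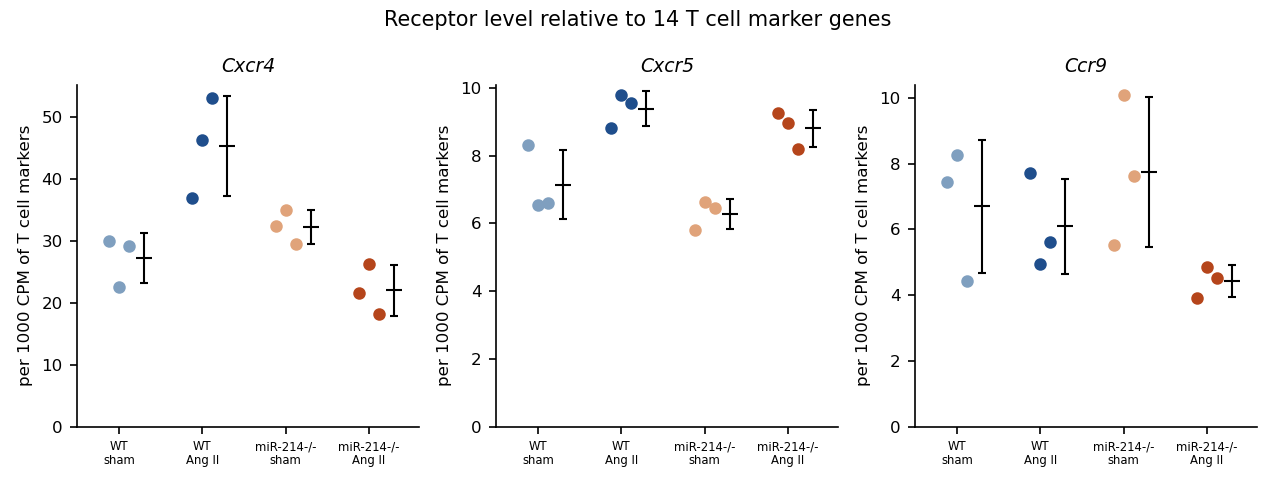
Cxcr4, Cxcr5 and Ccr9 per 1000 CPM of 14 summed T cell markers, 1 point per library with the group mean and SD as bars, axes from 0. Cxcr4 is higher with Ang II in WT (45.3 against 27.2) and lower with Ang II in miR-214-/- (22 against 32.3).

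The genotypes were also compared within each treatment. In sham, no receptor passed, beside 4 of 15913 genes (0.0251%), and the adjusted p of the receptors was 0.701 or more (edgeR). At an unadjusted p under 0.05 there were 4 receptors, and 6.67% of all genes. DESeq2 called 97 genes (0.643%) and none of the receptors. Ccr1 had every miR-214-/- sham library above every WT sham library (1.10 ± 0.41), beside 5.39% of all genes. Ccr4 (-0.44 ± 0.18), Ccr6 (-0.73 ± 0.27) and Cxcr5 (-0.29 ± 0.08) had every library below, beside 4.79% of all genes. The B cell markers were below WT in the same comparison, 10 of 10 with a negative log2 fold change and a median of -1.35, and none passed. Their sum was 409, 77.1 and 127 CPM in WT sham and 64.1, 120 and 81.8 in miR-214-/- sham, so the groups overlapped and WT sham replicate 1 alone stood above the rest. With Ang II, no receptor passed in edgeR, beside 0% of 16215 genes. At an unadjusted p under 0.05 there was 1 receptor, Cxcr4, and 8.56% of all genes. DESeq2 called 35 genes (0.200%) and none of the receptors. Cxcr4 was below in every library (-0.69 ± 0.20, adjusted p = 0.569, edgeR), beside 5.94% of all genes. No receptor was above in every library, beside 8.01% of all genes.

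Around the 9 receptors, the other chemokine receptors were taken as a list of 13, of which 12 were tested in WT. The counts of this and the following lists stand beside the 18.8% of all genes called in WT, and no list was tested as a whole. With Ang II, 4 rose and 1 fell, and the list median was 0.58. Cxcr2, the neutrophil receptor for Cxcl1 and Cxcl2, rose by 1.84 ± 0.40 (adjusted p = 0.023, edgeR). Ackr1, a chemokine-binding protein of red-cell precursors and venules, rose by 3.42 ± 0.40 (adjusted p = 0.00373, edgeR). Ccrl2, an atypical receptor of activated neutrophils and macrophages, rose by 1.34 ± 0.21, and Xcr1, a receptor of cross-presenting dendritic cells, by 0.97 ± 0.24. Beside a median of -0.50 for the T cell markers, Ccr7 fell (-0.65 ± 0.08, adjusted p = 0.00403, edgeR). Ccr7 keeps naive T cells in lymph nodes and the T cell zone. In miR-214-/- none of 11 passed, and the list median was 0.01, with the lowest adjusted p for Ccr8, a receptor of Th2 and regulatory T cells (0.42, adjusted p = 0.52, edgeR).

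Of 19 ligands of the 9 receptors, 10 were tested in WT and 1 passed: Ccl9, a ligand of Ccr1 made by myeloid cells, rose by 1.79 ± 0.28 (adjusted p = 0.00869, edgeR). The list median was 0.60. In miR-214-/- none of 11 passed, and Ccl9 was at 0.43 (adjusted p = 0.489, edgeR).

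The path from the receptor to movement was read from 22 genes. In WT, 1 rose and 4 fell. Tiam1, an activator of Rac, rose by 0.58 ± 0.12 (adjusted p = 0.022, edgeR). The 4 that fell were Rasgrp2, the activator of Rap1 (-0.49 ± 0.07), Pik3r5, the regulatory subunit of phosphoinositide 3-kinase gamma (-0.51 ± 0.08), Dock2, the Rac activator of lymphocyte migration (-0.38 ± 0.10), and Rassf5, the Rap1 effector RAPL (-0.32 ± 0.07). The T cell markers had a median of -0.50 in the same comparison. The list median was -0.04, and in miR-214-/- none passed (median 0.15).

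Among 13 genes of receptor desensitisation, 2 rose and 3 fell in WT. Rgs18 rose by 1.65 ± 0.31 (adjusted p = 0.0156, edgeR) and Arrb1, beta-arrestin 1, by 0.67 ± 0.10 (adjusted p = 0.00854). Rgs10 (-0.52 ± 0.10), Rgs14 (-0.37 ± 0.09) and the receptor kinase gene Grk6 (-0.38 ± 0.07) fell. In miR-214-/- none of the 13 passed (median 0.04).

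Of 12 lineage and residence genes tested, 4 fell in WT and none rose, beside a median of -0.50 for the T cell markers, and 3 of the 4 are described here. Klf2, the quiescence factor that drives S1pr1, fell (-0.86 ± 0.11, adjusted p = 0.00461, edgeR), as did S1pr1, the receptor for exit from lymphoid organs (-0.64 ± 0.09), and Gata3, the Th2 lineage factor (-0.44 ± 0.11). The lineage factors that go with Cxcr3 (Tbx21) and Cxcr5 (Bcl6) did not pass in any comparison. In miR-214-/- none of these genes passed.

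Cxcr4 is known to change quickly when cells are handled, so 13 rapid response genes were set beside it. In WT, Jun (-0.89 ± 0.13), Junb (-0.97 ± 0.13) and Ier2 (-0.54 ± 0.09) fell and none rose. In miR-214-/- 11 of 13 had a negative log2 fold change and none passed (median -0.54). The summed level was 1763 to 2570 CPM in WT sham and 1297 to 1363 in WT Ang II, and 1825 to 2208 and 1427 to 1497 in miR-214-/-. This list was lower with Ang II in both genotypes, and Cxcr4 was below the sham libraries in miR-214-/- only. The part of handling was not tested.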

How the data were processed

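The deposited file was a table of raw counts for 49315 genes in 12 libraries. Before deposit, the authors trimmed the paired 150-base reads of poly(A) libraries with Trimmomatic 0.36, aligned them to GRCm38 with STAR 2.5.2b and counted unique exonic reads with featureCounts of Subread 1.5.2. The annotation release and the strand setting of the counting were not given in the sources used here. Groups were taken from the labels. The 9 receptors and all gene lists were chosen with earlier results of these data known.

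Counts were tested with edgeR 4.0.16 in R 4.3.3: filtering by expression in the libraries compared, TMM scaling, a quasi-likelihood F test and Benjamini-Hochberg adjustment over all genes tested, with a threshold of 0.05. The groups compared entered each fit. The interaction used all 12 libraries. Alternatives were DESeq2 1.42.0, other scalings, other filters, a fold of 2, a replicate block, 1 fit over all groups, an adjusted-deviance fit and leaving out each library. The fit over both genotypes and the division by T cell markers were added after the data had been seen. The procedure was tested on simulated data.

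CPM used TMM over the 12 libraries, and levels between genes were divided by merged exon length from GENCODE M21, which matched all but 259 of the gene identifiers (0.0245% of counts). Library totals of 21126874 to 29605988 gave 45 or more reads for every receptor in every library. All 9 receptors were named in every comparison. For each receptor, the 2 most similar genes were found by Pearson r of log2 CPM with a prior count of 2. From each list, the genes that passed and those with the smallest adjusted p, at most 3 per direction, could be named. Sequences came from RefSeq (GRCm38) and the annotated 3′ UTRs. Some genes of the lineage and residence list are not reported here.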

Additional observations from a re-analysis of the deposited data

Results flagged for a closer look

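Cxcr4 divided by the summed T cell markers was picked out for a closer look because Ang II and sham differed in opposite directions in the 2 genotypes. Every WT Ang II library was above every WT sham library. Every miR-214-/- Ang II library was below every miR-214-/- sham library. In WT the Ang II mean was 1.67 times the sham mean. On the CPM scale, Cxcr4 in WT was 1.17-fold with overlapping libraries (0.23 ± 0.13, adjusted p = 0.267, edgeR), and 61.1% of all genes were higher in every WT Ang II library once divided by the T cell markers. For miR-214-/- the corresponding ratio was 0.682. The difference between the genotypes on this scale was not tested. On the CPM scale the interaction of Cxcr4 had an adjusted p of 0.228 with edgeR and 0.0427 with DESeq2.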

How the results depend on the processing

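Across the alternatives, 803 results kept their direction and their side of the threshold, 25 changed sign, 10 gained a call and 8 lost one. The cause was not tested. With DESeq2, 3 receptors passed in miR-214-/- and 1 in the interaction, and over all genes 277 passed in miR-214-/-, 444 in the interaction, 97 for the genotypes in sham and 35 with Ang II. Without a filter on low counts, 5 genes passed in miR-214-/- and 9 for the genotypes in sham. A fold of 2 left 1169 genes in WT and 502 over both genotypes. One fit over all 4 groups gave 0 genes for the genotypes in sham and 1 with Ang II, and turned Ccr4 in WT to -0.01. The adjusted-deviance fit gave Ccr6 0.00 between the genotypes with Ang II. With the longest transcript as length, the WT sham levels were 13.9 for Ccr2, 9.04 for Ccr9 and 17.6 for Cxcr5.

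Leaving out each library gave 0 to 4 receptors in WT and 0 to 1 in the interaction. Over all genes it gave 946 to 3590 in WT, 0 to 1 in miR-214-/-, 0 to 35 for the genotypes in sham, 0 to 1 for the genotypes with Ang II, 0 to 919 in the interaction and 1010 to 3583 over both genotypes. Log2 fold changes that changed sign ranged as follows. In WT, Ccr4 ran from -0.05 to 0.11 and Cxcr3 from -0.23 to 0.12. In miR-214-/-, Cxcr6 ran from -0.28 to 0.00. Between the genotypes in sham, Ccr9 ran from -0.11 to 0.30. Between the genotypes with Ang II, Ccr2 ran from -0.40 to 0.35, Ccr4 from -0.01 to 0.21, Ccr6 from -0.36 to 0.17, Ccr9 from -0.26 to 0.15, Cxcr3 from -0.01 to 0.30 and Cxcr6 from -0.31 to 0.24. In the interaction, Ccr2 ran from -0.73 to 0.00, Ccr9 from -0.41 to 0.04 and Cxcr6 from -0.03 to 0.51.

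Same-numbered libraries did not deviate together in all pairs (r from -0.59 to 0.22), so the numbers were not taken to pair them. With the replicate block, 2 receptors passed in WT and 0 genes passed for the genotypes in sham.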
